A study of Homo sapiens with 6 samples.

Results

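Vascular growth factor genes of the VEGF, PDGF and angiopoietin families, with the VEGF receptor FLT1 among them, were followed in K562 cells with and without induction of Flag-PCBP1. The 10 genes were taken from a list by their GENCODE symbols, out of 62252 genes in the files. They are VEGFA, VEGFB, VEGFC, PGF, FLT1, PDGFA, PDGFB, PDGFC, ANGPT1 and ANGPT2. The list was chosen with earlier results of these data known. K562 is a human erythroid leukemia cell line. PolyA RNA was sequenced in 3 control libraries (−Dox) and 3 libraries of PCBP1 overexpression (+Dox). Both groups are stable K562 cells that carry the same cassette, placed at the AAVS1 locus of a clonal K562flox parent by recombinase-mediated cassette exchange. The cassette makes the cells resistant to puromycin, and its tet-inducible promoter drives Flag-PCBP1. The stable line was polyclonal and kept under puromycin. The dose and duration of doxycycline (Dox) in these cultures are not given in the sources used here. Since Dox and Flag-PCBP1 were present in the same libraries, their effects cannot be told apart. The labels do not say whether the 3 libraries of a group came from separate cultures, so the p-values measure the spread between libraries only. In bulk RNA, fewer cells of a type and less RNA per cell cannot be told apart.

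VEGFA, VEGFB, VEGFC and PGF encode secreted growth factors that act through receptor tyrosine kinases of blood and lymph vessel cells. VEGFA is the main signal for the growth of blood vessels and a known target of hypoxia-inducible factors, and FLT1 is a receptor that binds VEGFA, VEGFB and PGF and also exists as a soluble form that holds its ligands away from other receptors. PDGFA, PDGFB and PDGFC encode chains of platelet-derived growth factors, which recruit mesenchymal cells and pericytes to vessels. ANGPT1 and ANGPT2 encode ligands of the receptor TEK (TIE2), with ANGPT1 known for keeping vessels stable and ANGPT2 for opposing it. PCBP1 is a protein that binds C-rich RNA.

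Each library held between 70905656 and 84177316 estimated counts. PCBP1 rose from 261 ± 12.0 CPM (estimated counts scaled to library size and normalised by TMM) in −Dox to 1001 ± 56.2 CPM in +Dox (SD, n = 3). edgeR put this at 1.94 on the log2 scale (SE 0.0551, adjusted p = 5.22e-10). The induced gene therefore followed the labels. All 8 markers fixed for K562 were at 1 TPM or more (a share of all transcripts that is scaled for transcript length), and their summed level was 19836 to 20740 TPM in −Dox and 19534 to 20018 TPM in +Dox, with the fetal globin gene HBG2 the most abundant.

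Of the 10 genes, 8 had at least 1 count in each library and passed the filter of a mean count above 10, and 4 of these had a mean of at least 1 TPM. VEGFC, the ligand of lymph vessels, had 2 counts in +Dox replicate 1 and 0 in the other 5 libraries. PDGFC had 2 counts in −Dox replicate 3 and 0 in the other 5 libraries. A count of 0 allows up to 3 counts in a library, which is 0.0356 to 0.0423 CPM before TMM at these depths (counting error only), so VEGFC and PDGFC were at the limit of detection and were not tested. In the 8 genes tested, 4 were called lower in +Dox at an adjusted p under 0.05 by edgeR (Benjamini-Hochberg over 21045 genes) and 0 higher. At an unadjusted p under 0.05, 5 were lower and 0 higher, and DESeq2 called 4 lower and 0 higher. Across all genes tested 7.68% were called lower by edgeR, 8.16% higher and 15.8% in either direction. At least 5745 of the 21045 genes had an unadjusted p under 0.05 by edgeR, and DESeq2 called 3939, each in either direction. VEGFA, PDGFA, PDGFB and ANGPT1 were the genes called. PDGFB was the only member to pass the limits for a DEG, which also ask for an absolute log2 fold change above 1, against 1.46% of all genes and 0.727% as lower DEGs. The log2 fold change was negative in 7 of the 8, with a median of −0.56 beside 0.01 over all genes tested. Because the members were chosen with earlier results known, these contrasts with all genes are a description and not a test.

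The 100 bases before the annotated start of PDGFA, which fell, and of VEGFB, which was not called, are shown to set a ligand that changed beside one that did not pass the test. For PDGFA the start is that of PDGFA-203, its most abundant transcript. They are from RefSeq (GRCh38.p14), at chr7:519847-519946 on the minus strand and chr11:64234484-64234583 on the plus strand. Capitals mark GGGCGG, the core of a GC box, and GCGTG, a core of the hypoxia response element, on either strand.

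PDGFA: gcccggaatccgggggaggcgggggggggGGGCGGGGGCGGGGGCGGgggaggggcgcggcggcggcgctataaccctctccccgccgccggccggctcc

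VEGFB: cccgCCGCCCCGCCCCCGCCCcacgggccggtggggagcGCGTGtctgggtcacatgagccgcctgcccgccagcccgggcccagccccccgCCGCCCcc

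The PDGFA window held GGGCGG 3 times, beginning 71, 65 and 59 bases before the start, and the VEGFB window held it 4 times, of which the first pair overlaps by 1 base. GCGTG was found once in VEGFB, 61 bases before the start, and not in these 100 bases of PDGFA. ACGTG and TATAAA, searched in the same way on both strands, were in neither window. Only exact strings were searched, and the PDGFA window holds tataac, which differs from TATAAA in its last base. Among 34943 RefSeq promoters cut to the same 100 bases, 31.2% held GGGCGG, 17.2% GCGTG, 8.98% ACGTG and 5% TATAAA. The GC content was 87% in PDGFA and 86% in VEGFB. Entries were matched for 5 of the 10 genes.

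VEGFA (ENSG00000112715.26; GRCh38 chr6:43770184-43786487, plus strand) was the most abundant member of its own family. It had 95.2, 90.8 and 106 CPM in −Dox and 61.3, 69.5 and 72.9 CPM in +Dox. Each +Dox library was below each −Dox library, with +Dox replicate 1 the lowest. The mean fell from 97.3 ± 7.73 to 67.9 ± 5.94 CPM (SD, n = 3), and edgeR gave a log2 fold change of −0.52 (SE 0.0711, adjusted p = 4.03e-04), which is 69.8% of the −Dox level. Per transcript length, the level was 35.9 ± 1.91 TPM in −Dox and 26.3 ± 2.11 TPM in +Dox. In the 14 alternative settings the log2 fold change lay between −0.57 and −0.42, and VEGFA was called in each. A lncRNA on the other strand, ENSG00000272114, shares 188 exon bases (1.3%) with VEGFA and had 0 counts in all 6 libraries.

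VEGFB (ENSG00000173511.10; chr11:64234584-64239264, plus strand), a ligand of FLT1 known for roles in heart and fat tissue, had 15.1, 19.0 and 17.4 CPM in −Dox and 19.7, 16.7 and 21.5 CPM in +Dox. The groups overlapped. edgeR gave a log2 fold change of 0.17 (SE 0.101, adjusted p = 0.304), and it was called under none of the 14 alternatives (0.08 to 0.28). VEGFB was the only tested member with a positive estimate.

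PGF (ENSG00000119630.14; chr14:74941834-74955626, minus strand), the placental growth factor, was low in all libraries, with 116, 90 and 116 counts in −Dox and 84, 115 and 68 in +Dox. This was 1.36 ± 0.199 and 1.13 ± 0.266 CPM (SD, n = 3), with overlapping groups (edgeR log2 fold change −0.27, SE 0.241, adjusted p = 0.519).

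FLT1 (ENSG00000102755.13; chr13:28300346-28495145, minus strand), the receptor of the list, had 84, 94 and 129 counts in −Dox and 38, 79 and 77 counts in +Dox. In CPM these were 0.993, 1.21 and 1.73 against 0.536, 0.934 and 0.948. All +Dox values were below the −Dox values, with a gap of less than 0.1 CPM at the nearest pair. Its log2 fold change of −0.69 (SE 0.294) did not pass the edgeR test (adjusted p = 0.139), and it was called under none of the 14 alternatives.

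**Figure D1:**
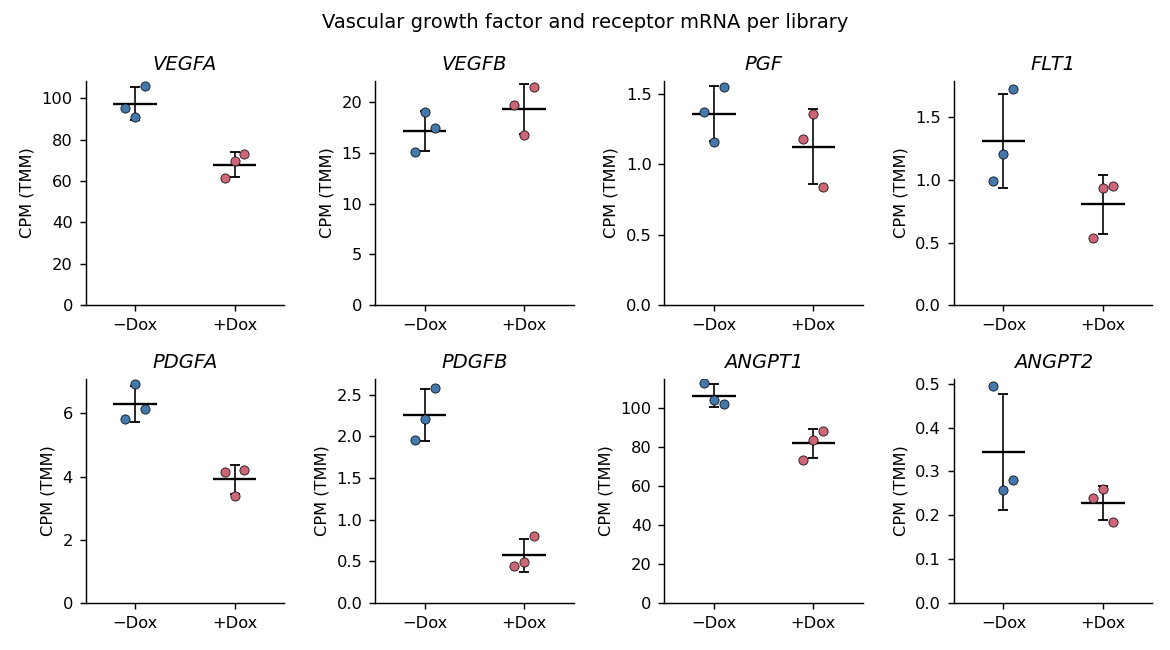
Normalised level in CPM (y axis, from 0, one scale per gene) of the 8 genes tested in the 3 −Dox (blue) and 3 +Dox (red) libraries. Points are libraries, the horizontal line is the mean and the bars are the SD. VEGFA, FLT1, PDGFA, PDGFB and ANGPT1 had no overlap between the groups, while VEGFB, PGF and ANGPT2 overlapped.

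Of the 8 genes tested, 5 had no overlap between the groups, all with +Dox below, where 15.8% of all genes had +Dox below −Dox without overlap and 33.2% had no overlap in either direction.

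PDGFA (ENSG00000197461.13; chr7:497258-520296, minus strand) encodes the A chain. It had 5.83, 6.92 and 6.13 CPM in −Dox and 4.13, 3.39 and 4.2 CPM in +Dox. The lowest −Dox library was above the highest +Dox library. The mean fell from 6.29 ± 0.565 to 3.91 ± 0.446 CPM (SD, n = 3), to 62.1% of −Dox (edgeR log2 fold change −0.69, SE 0.124, adjusted p = 0.00246). In TPM, the values were 2.62, 2.63 and 2.57 in −Dox and 2.40, 1.91 and 1.60 in +Dox, and the difference was smaller. PDGFA was not called with an offset for transcript length (log2 fold change −0.38, adjusted p = 0.192) or by limma on log2(TPM + 0.1) (−0.41, adjusted p = 0.22) and log2(TPM + 1) (−0.29, adjusted p = 0.225). It was called in the other 11 settings.

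PDGFB (ENSG00000100311.17; chr22:39223359-39244982, minus strand) encodes the B chain, the ligand that draws PDGFRB-bearing pericytes to vessels. It had 166, 172 and 193 counts in −Dox and 31, 41 and 65 counts in +Dox. In CPM these were 1.96, 2.21 and 2.58 against 0.437, 0.485 and 0.801. The highest +Dox library was below 1 CPM and all −Dox libraries were near or above 2 CPM. The mean fell from 2.25 ± 0.313 to 0.574 ± 0.198 CPM (SD, n = 3), to 25.6% of −Dox (edgeR log2 fold change −1.96, SE 0.258, adjusted p = 3.01e-04). It was called in all 14 alternatives, and without +Dox replicate 3, the highest of the +Dox libraries, the log2 fold change was −2.28. On the log2(TPM + 1) scale, which compresses low genes, it was −0.46. A lncRNA on the other strand within the PDGFB locus, ENSG00000284633, shares 0 exon bases with it and had 11, 3 and 5 counts in −Dox and 0 in each +Dox library. It was under the filter and not tested, and it was named after its values were seen.

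ANGPT1 (ENSG00000154188.10; chr8:107249482-107498055, minus strand) had the highest level of the 10 genes. It had 113, 104 and 102 CPM in −Dox and 73.4, 83.7 and 88.2 CPM in +Dox, again without overlap and with +Dox replicate 1 the lowest. The mean fell from 106 ± 5.99 to 81.8 ± 7.58 CPM (SD, n = 3), to 77.2% of −Dox (edgeR log2 fold change −0.37, SE 0.0672, adjusted p = 0.00236). It was called in all 14 alternatives, between −0.45 and −0.30.

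ANGPT2 (ENSG00000091879.14; chr8:6499632-6563409, minus strand) had 42, 20 and 21 counts in −Dox and 17, 22 and 15 in +Dox. The groups overlapped, and −Dox replicate 1 alone stood above the rest. edgeR gave a log2 fold change of −0.60 (SE 0.465, adjusted p = 0.450). MCPH1 on the other strand shares 658 exon bases (9.69%) with ANGPT2 and had 53.2 ± 3.09 CPM without and 50.6 ± 1.56 CPM with Dox (SD, n = 3). Since the strand setting of the counting is not stated, ANGPT2 counts in the shared bases are uncertain.

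**Figure D2:**
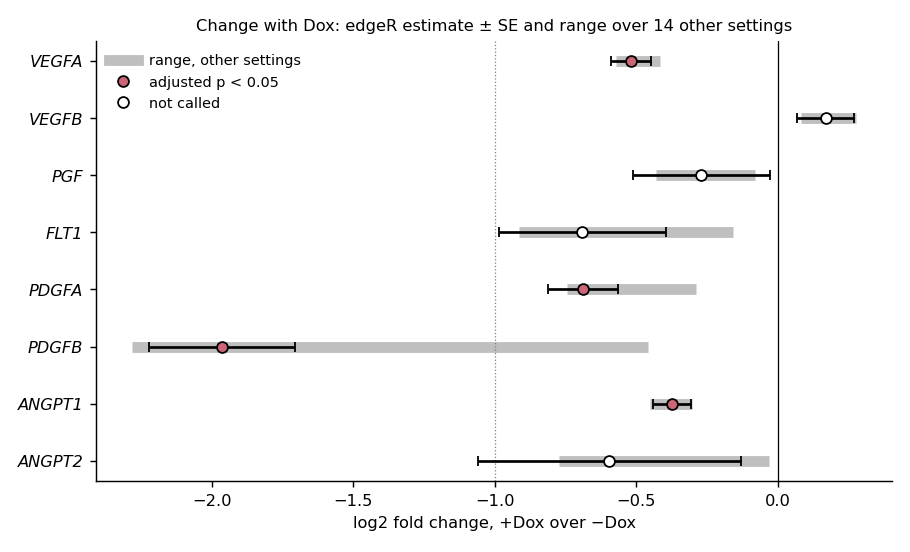
The log2 fold change of +Dox over −Dox (x axis) for the 8 genes tested, with the SE as bars and the range over 14 other settings in grey. Filled points were called at an adjusted p under 0.05 by edgeR, and the dotted line marks −1, the limit for a DEG. PDGFB alone lies beyond it (−1.96), and VEGFB is the one estimate above 0 (0.17).

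Together the 10 genes had 101, 94.5 and 96.2 TPM in −Dox and 74.0, 81.0 and 78.9 TPM in +Dox. The sums did not overlap, at 97.4 ± 3.62 and 78.0 ± 3.60 TPM (SD, n = 3; exact permutation p = 0.1, two-sided, the smallest that 3 against 3 libraries allow). ANGPT1 and VEGFA held 43.1% and 36.9% of the sum in −Dox and 39.3% and 33.7% in +Dox, while the share of VEGFB was 15.9% ± 1.36 in −Dox and 23.6% ± 2.58 in +Dox. The order of levels in −Dox was ANGPT1, VEGFA, VEGFB, PDGFA, PDGFB, PGF, FLT1 and ANGPT2 in TPM, followed by PDGFC and VEGFC near 0. PDGFB and PGF, PGF and FLT1, and PDGFC and VEGFC were neighbours whose libraries overlapped. In +Dox, ANGPT1 (30.7 ± 2.72 TPM) and VEGFA (26.3 ± 2.11 TPM) overlapped, and PDGFB (0.141 ± 0.0452 TPM) had a lower mean than PGF (0.374 ± 0.0860 TPM) and FLT1 (0.146 ± 0.0474 TPM).

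The transcripts that carried each gene were taken from the same files. The 10 genes have 81 annotated transcripts, of which 30 passed a mean count above 10. By edgeR over 86178 transcripts, 0 of the 30 were called at an adjusted p under 0.05, while 13 had an unadjusted p under 0.05 (12 lower and 1 higher) and DESeq2 called 8. Over all transcripts tested edgeR called 0.204%, and 0.0754% as lower. Of the 86178 transcripts, 8651 had an unadjusted p under 0.05 by edgeR, and DESeq2 called 5876, each in either direction. In simulated data with 3 libraries per group, 200 of the more abundant transcripts were changed by a log2 fold change of 1.5. There edgeR recovered 27% of them, with 3 unchanged ones called. So few changed transcripts make the adjusted p stricter than where many change. The 27% is therefore only a rough guide to what edgeR could detect here. DESeq2 recovered 65.5% and called 561 unchanged transcripts. The split of reads between transcripts of a gene has an error of its own that the files do not hold. The levels below are therefore given per class of transcript, with an exact permutation test over the 6 libraries, two-sided, whose smallest p is 0.1.

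VEGFA transcripts were classed by the coding exons that set how firmly the protein is held by heparan sulfate outside the cell. The VEGF165 class holds exon 7, the VEGF189 class holds exons 6a and 7, and the freely diffusible VEGF121 class holds neither. The VEGF165 class had 14.8, 11.3 and 14.5 TPM in −Dox and 7.21, 7.92 and 8.81 TPM in +Dox. It was the most abundant coding class in all 6 libraries, and its levels did not overlap between the groups. Its share of the protein-coding TPM of VEGFA was 58.9%, 54.7% and 62.6% in −Dox and 51.4%, 52.4% and 53.2% in +Dox, a difference of −6.41 percentage points without overlap (exact permutation p = 0.1). With estimated counts in place of TPM the difference was −2.21 points and the shares overlapped (exact permutation p = 0.7).

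The lack of overlap in level and the difference in share of the VEGF165 class were not seen without VEGFA-225, a transcript singled out after its values were seen. VEGFA-225 was estimated at 5.28, 3.05 and 1.25 TPM in −Dox and listed at 0 in all 3 +Dox libraries. It did not pass the edgeR test over all transcripts (adjusted p = 0.105) and passed that of DESeq2 (adjusted p = 3.95e-11). With VEGFA-225 left out, an alternative chosen after seeing the data, the VEGF165 class had 9.53, 8.26 and 13.2 TPM in −Dox, so that +Dox replicate 3, at 8.81 TPM, lay above −Dox replicate 2. Its mean was then 10.3 ± 2.56 TPM in −Dox and 7.98 ± 0.801 TPM in +Dox (SD, n = 3). Its share was then 51.8% ± 7.55 in −Dox and 52.3% ± 0.921 in +Dox (SD, n = 3), with overlap. With VEGFA-225 listed at 0 in +Dox, leaving it out could lower only the −Dox values. The split of reads between transcripts of the class is uncertain, so which of them carried the difference cannot be told. The 4 members with a mean of at least 1 TPM (VEGFA, VEGFB, PDGFA and ANGPT1) had 12 coding classes not at 0 throughout, and the shares of VEGF165 and of ANGPT1-206 were the 2 of these without overlap. Over the 74913 transcripts tested of genes at 1 TPM or more, 13.1% had a share of their gene without overlap.

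The VEGF121 class, carried by VEGFA-206, had 6.11, 5.84 and 5.74 TPM in −Dox and 4.32, 4.66 and 4.15 TPM in +Dox. The VEGF189 class, carried by VEGFA-226, was at 3.28 ± 0.671 TPM in −Dox and 2.30 ± 0.286 TPM in +Dox (SD, n = 3). In TPM both were lower in each +Dox library than in any −Dox library, and their shares, 25.8% and 28.9% for VEGF121 and 14.3% and 15.3% for VEGF189, overlapped. Within the VEGF165 class, VEGFA-209 and VEGFA-205 differ by 2 bases at the start, and VEGFA-205 was listed at 0 TPM in −Dox replicate 2 and +Dox replicate 1 and at 3.21 to 5.32 TPM in the other 4 libraries. Single values of this pair are not compared. Transcripts with a retained intron held 36.1% ± 3.06 of all VEGFA TPM in −Dox and 41.9% ± 4.63 in +Dox, with overlap (exact permutation p = 0.2). In level, 16 of the 30 member transcripts tested had no overlap between the groups, 15 of them with +Dox below, where 17.7% of all transcripts tested had no overlap and 10.7% had +Dox below.

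VEGFB has a longer coding form, VEGFB-201 with 621 coding bases, whose product does not bind heparin, and a shorter heparin-binding one, VEGFB-202 with 564. The longer form holds a segment of 101 bases at chr11:64237420-64237520 that the other lacks, and the segment is shown because it alone separates these transcripts (GENCODE 44, GRCh38, plus strand).

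VEGFB-201 segment: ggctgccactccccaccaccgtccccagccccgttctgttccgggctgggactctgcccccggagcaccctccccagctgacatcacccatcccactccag

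The longer form held 82.3% of the coding TPM of VEGFB in −Dox and 81.9% in +Dox, at 6.67 ± 0.632 and 6.93 ± 0.668 TPM (SD, n = 3). A transcript with a retained intron, VEGFB-204, had 7.17, 7.04 and 7.98 TPM in −Dox and 10.8, 9.03 and 9.65 TPM in +Dox. It was higher in each +Dox library, and its share of all VEGFB TPM was 47.7% ± 2.80 and 53.7% ± 3.27 without overlap (exact permutation p = 0.1), although its own log2 fold change of 0.45 did not pass the test over all transcripts (SE 0.164, adjusted p = 0.479 by edgeR). In PDGFA and ANGPT1 the share of retained intron transcripts lay the opposite way. It was 9.85% ± 0.919 in −Dox and 4.79% ± 1.62 in +Dox for PDGFA, and 7.19% ± 0.672 and 5.78% ± 0.603 for ANGPT1. Both were without overlap (SD, n = 3, exact permutation p = 0.1 each). For PDGFA this was 1 transcript, PDGFA-206, at 0.257 ± 0.0222 and 0.0973 ± 0.0444 TPM, which did not pass the edgeR test over all transcripts (adjusted p = 0.501). Its share is also taken over a gene TPM that holds PDGFA-205, described below. How often retained intron shares lacked overlap over all genes was not computed. In VEGFA the mean share was higher in +Dox (36.1% and 41.9%) and in PGF lower (63.1% and 60.2%), both with overlap. The coding transcripts of VEGFB together were at 8.10 ± 0.679 TPM in −Dox and 8.47 ± 0.901 TPM in +Dox, with overlap.

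**Figure D3:**
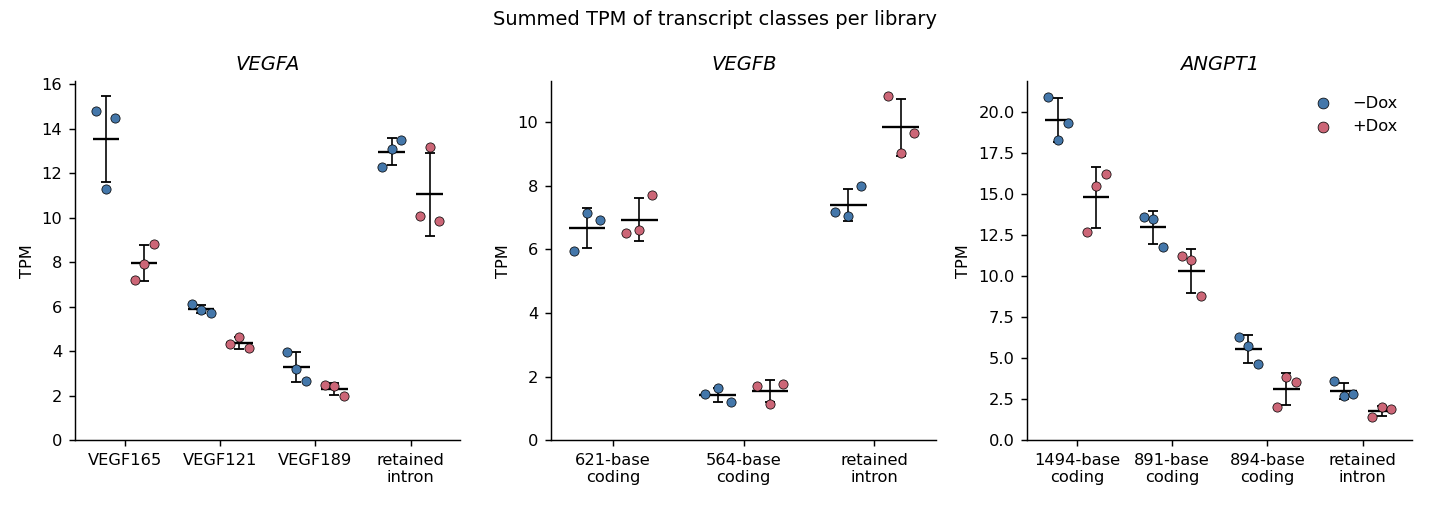
Summed TPM (y axis, from 0, one scale per gene) of the transcript classes of VEGFA, VEGFB and ANGPT1 in the 3 −Dox (blue) and 3 +Dox (red) libraries. Points are libraries, the line is the mean and the bars are the SD. The VEGF165 class, with VEGFA-225 included, is at 11.3 to 14.8 TPM in −Dox and 7.21 to 8.81 TPM in +Dox, and the retained intron transcript of VEGFB is higher in +Dox.

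PDGFA has a long form, PDGFA-201, whose last coding bases encode a basic stretch known to hold the A chain at the cell surface and matrix, and a short form, PDGFA-203, that lacks it. The 53 coding bases at chr7:500447-500499 (minus strand, GENCODE 44) set the long form apart and are shown for that reason.

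PDGFA-201 segment: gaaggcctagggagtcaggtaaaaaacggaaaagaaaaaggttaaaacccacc

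The short form had 2.07, 2.30 and 2.08 TPM in −Dox and 1.28, 1.19 and 1.43 TPM in +Dox, without overlap (log2 fold change −0.65, SE 0.165, adjusted p = 0.261 over all transcripts by edgeR). The long form was at 0.102 TPM in −Dox and 0.0539 TPM in +Dox, 4.44% and 3.71% of the coding TPM. A short transcript with no defined coding sequence, PDGFA-205, was listed at 0.502 and 0.511 TPM in +Dox replicates 1 and 2, at 0.122 TPM in −Dox replicate 1 and at 0 in the other 3 libraries. These +Dox values make up 20.9% and 26.7% of PDGFA TPM in their libraries, and they move with the smaller difference of PDGFA in TPM than in counts. Their part in that was not tested.

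PDGFB was carried by PDGFB-201, which encodes the full chain with 723 coding bases. Its values were those of the gene, 0.516, 0.533 and 0.653 TPM in −Dox and 0.105, 0.125 and 0.192 TPM in +Dox.

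The most abundant ANGPT1 transcript was the full coding ANGPT1-202 (1494 coding bases) at 20.9, 18.3 and 19.3 TPM in −Dox and 12.7, 15.5 and 16.2 TPM in +Dox. It held 51.3% and 52.3% of the coding TPM. ANGPT1-205 and ANGPT1-206, with 891 and 894 coding bases, begin inside the gene at position 107336522 and differ by 3 bases in length. ANGPT1-205 was at 13 ± 1.02 and 10.3 ± 1.31 TPM, and ANGPT1-206 at 5.57 ± 0.836 and 3.15 ± 0.979 TPM (SD, n = 3). All 3 transcripts were lower in each +Dox library than in any −Dox library, and none passed the test over all transcripts, with adjusted p values from 0.419 to 0.496 by edgeR and from 0.0597 to 0.149 by DESeq2. The share of ANGPT1-206 was 14.6% ± 1.34 in −Dox and 11% ± 2.73 in +Dox, without overlap (exact permutation p = 0.1). ANGPT1-205 held 34.1% and 36.7%, with overlap. As these transcripts differ by 3 bases, the split of reads between them is uncertain and the share of ANGPT1-206 is not read alone.

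FLT1 transcripts were split into the membrane receptor, FLT1-201, which holds the last coding exon, and 3 soluble transcripts that end before it. FLT1 was below the mean of 1 TPM asked of the classes above, and its split was reported with its values in view. The soluble transcripts had 68, 62 and 110 estimated counts in −Dox and 21, 38 and 50 in +Dox. The membrane transcript had 16, 32 and 19 in −Dox and 17, 36 and 27 in +Dox. The soluble sum was lower in each +Dox library, at 0.245 ± 0.0971 against 0.0931 ± 0.0274 TPM (SD, n = 3; exact permutation p = 0.1), while the membrane transcript overlapped at 0.0370 ± 0.0141 and 0.0424 ± 0.0139 TPM. The soluble share of the TPM of these 4 transcripts was 88.2%, 78.1% and 91.5% in −Dox and 68.3%, 63% and 74.5% in +Dox, without overlap (exact permutation p = 0.1). In estimated counts the nearest libraries of the groups were at 66% and 65.6%, and counts this low carry a large counting error. FLT1-204, FLT1-207 and FLT1-201 did not pass the edgeR test over all transcripts (adjusted p = 0.355, 0.933 and 0.956), and FLT1-209 was not tested. The 13.1% of transcripts with a share without overlap covers genes at 1 TPM or more only. PGF was mostly on the retained intron transcript PGF-205, at 0.285 TPM in −Dox and 0.228 TPM in +Dox, and retained intron transcripts held 63.1% and 60.2% of PGF TPM. Its coding transcripts together were at 0.167 and 0.146 TPM.

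The other genes of these pathways were taken from 5 lists with 57 genes, of which 35 were tested. Of the 35, 7 were called higher and 6 lower, 37.1% in either direction, with a median log2 fold change of 0.06. Over all genes tested 8.16% were called higher and 7.68% lower, 15.8% in either direction. These lists too were chosen with earlier results known, so the contrast is a description. The 3 other ligands, VEGFD, PDGFD and ANGPT4, were near 0 in all libraries. Of 11 receptors and co-receptors, KDR, the main VEGFA receptor, PDGFRA, PDGFRB, PDGFRL, NRP1 and NRP2 were under the filter. FLT4, TEK, TIE1 and ENG were tested and not called, with log2 fold changes between −0.15 and 1.19. PTPRB, a phosphatase that acts on TEK, was the only receptor-list gene called, with 7.82, 7.51 and 8.87 CPM in −Dox and 5.31, 5.06 and 6.96 CPM in +Dox (log2 fold change −0.48, SE 0.128, adjusted p = 0.0221 by edgeR). It was called in 8 of the 14 alternatives. TEK itself, the receptor of the angiopoietins, was at 0.14 TPM in −Dox and 0.172 TPM in +Dox.

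Of 10 genes for proteins that process or bind these ligands, 9 were tested, 2 were called higher and 1 lower, beside 8.16% and 7.68% of all genes. PLAU, the urokinase that frees VEGFA bound to matrix, had 3.07, 3.48 and 3.53 CPM in −Dox and 1.85, 1.80 and 1.80 CPM in +Dox. It fell by 0.89 on the log2 scale (SE 0.149, adjusted p = 0.00152, edgeR). SPARC, a matrix protein that binds PDGF and VEGFA, rose from 2.67 ± 0.464 to 4.45 ± 0.387 CPM (SD, n = 3; log2 fold change 0.74, adjusted p = 0.00589 by edgeR). The size of the SPARC change differed between fits, with a log2 fold change of 1.56 in the edgeR fit with the transcript length offset and 1.40 by limma on log2(TPM + 0.1). PCSK6, a proprotein convertase, rose from 18.9 ± 0.663 to 22.8 ± 0.462 CPM (SD, n = 3; log2 fold change 0.27, adjusted p = 0.00896 by edgeR), and was called in 10 of the 14 alternatives. FURIN and PCSK7, convertases of the same family, had log2 fold changes of 0.18 and 0.17 and were not called.

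Of 21 other angiogenic factors, 13 were tested, 3 were called higher and 4 lower, 2 of them as DEGs. All genes tested had 8.16% called higher, 7.68% lower and 0.727% as lower DEGs. The DEGs were the cytokines IL6 and CXCL8 (log2 fold changes −2.20 and −2.12). CXCL8 had 2.66, 3.88 and 5.90 CPM in −Dox and 0.944, 0.922 and 0.985 CPM in +Dox. The −Dox libraries spread widely and the +Dox libraries did not. EGFL7, a secreted factor of vessel sprouting, fell from 96.5 ± 11.9 to 69.4 ± 9.71 CPM (SD, n = 3; log2 fold change −0.48, adjusted p = 0.00559 by edgeR). FGF2 fell from 48.5 ± 2.73 to 36.9 ± 1.08 CPM (SD, n = 3; log2 fold change −0.39, adjusted p = 5.52e-04 by edgeR). MDK, a heparin-binding growth factor, had the highest level of the list and rose from 142 ± 12.3 to 185 ± 7.62 CPM (SD, n = 3; log2 fold change 0.38, adjusted p = 0.00111 by edgeR). EFNA1, a ligand of Eph receptors, rose from 3.63 ± 0.411 to 5.54 ± 0.371 CPM (SD, n = 3; edgeR log2 fold change 0.61, adjusted p = 0.00515). CCN1 was the third called higher.

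Of 12 angiogenesis inhibitors, 8 were tested, 2 were called higher and 0 lower, beside 8.16% and 7.68% of all genes. By DESeq2 3 were higher and 0 lower, and at an unadjusted p under 0.05 by edgeR again 3 and 0. COL18A1, whose collagen chain is the source of endostatin, had 17.9, 18.7 and 18.5 CPM in −Dox and 32.0, 30.9 and 29.1 CPM in +Dox. It rose by 0.74 on the log2 scale (SE 0.0594, adjusted p = 5.38e-06, edgeR). SERPINF1, which encodes PEDF, rose from 34.8 ± 1.53 to 49.3 ± 2.0 CPM (SD, n = 3; log2 fold change 0.50, adjusted p = 9.12e-05 by edgeR). THBS1, the inhibitor thrombospondin, was at 0.312 and 0.260 CPM and was not called. The median log2 fold change was 0.31 in this list, 0.17 in the processing list, −0.10 in the other factors and 0.35 in the 5 receptors tested.

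**Figure D4:**
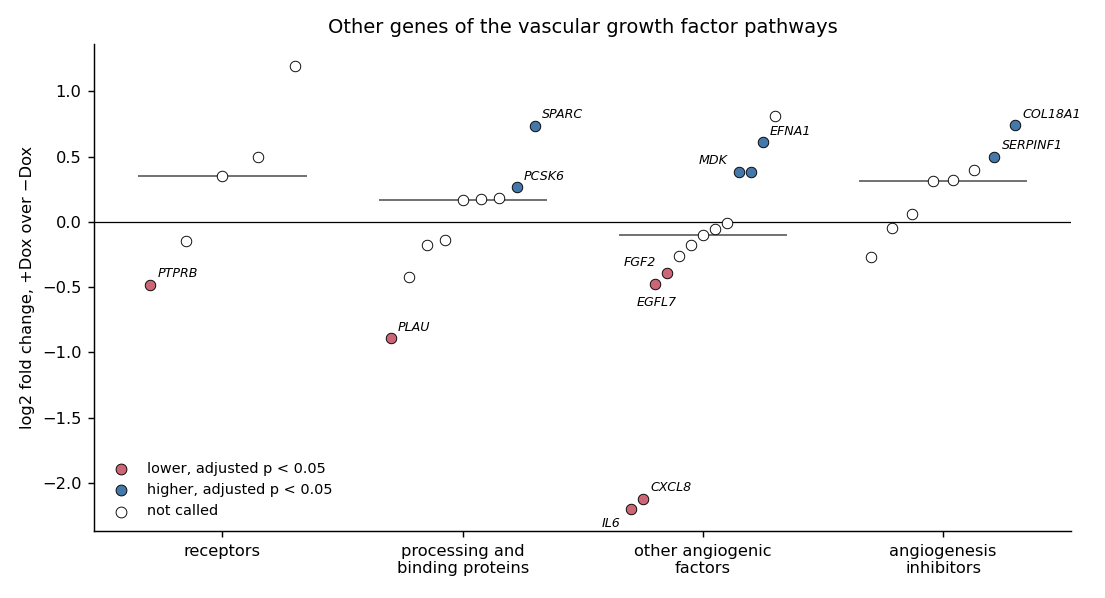
The log2 fold change of +Dox over −Dox (y axis) of the tested genes in 4 pathway lists, sorted within each list. Red points were called lower and blue points higher at an adjusted p under 0.05 by edgeR, open points were not called, and horizontal lines are the medians of the lists. Called genes lie on both sides of 0 except among the inhibitors, where both lie above, and the receptors, where the 1 called lies below.

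Markers of other cells were at low levels. The summed level of 7 endothelial markers was 1.93, 1.94 and 4.29 TPM in −Dox and 2.86, 2.43 and 3.15 TPM in +Dox, with PECAM1 the most abundant and CDH5, VWF and ROBO4 near 0. The 6 fibroblast or pericyte markers summed to 0.864 to 2.16 TPM, with RGS5 the highest and LUM at 0, and the 7 megakaryocyte markers to 5.43 to 6.42 TPM, with ITGA2B the highest and PF4 at 0. Of the 10 genes of these 3 lists that were tested, 0 were called by edgeR or by DESeq2, and 3 had an unadjusted p under 0.05 by edgeR (2 higher and 1 lower). Among the K562 markers, the transcription factor genes KLF1 (log2 fold change 0.46) and TAL1 (0.44) were called higher and the transferrin receptor gene TFRC (−0.34) lower. The part of these differences in the changes of the growth factor genes was not tested.

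Genes whose profile over the 6 libraries was nearest to a member were found by the root mean square difference of centred log2 CPM, among 14331 genes with a mean of at least 1 CPM. Nearest to VEGFA were GHRLOS (0.0464), PTPN7 (0.0572) and ZEB2-AS1 (0.0586). PTPN7 had 69.9, 69.7 and 78.8 CPM in −Dox and 49.9, 55.3 and 53.4 CPM in +Dox. Nearest to PDGFB were CD24 (0.124), PHLDA1 (0.176) and ANKRD55 (0.197). CD24 had 56.2, 58.7 and 76.9 CPM in −Dox and 14.6, 16.7 and 21.5 CPM in +Dox, and in CD24 as in PDGFB the third library of each group was the highest. The likeness is over 6 points that share their libraries, and it is given as a description.

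The most abundant transcripts of the members were also read for runs of C, the kind of sequence PCBP1 is known to bind. The number of CCCC per kb was 9.39 in PDGFB, 6.56 in PDGFA, 4.94 in VEGFA and 0.709 in ANGPT1, the genes that fell, beside a median of 3.22 over the 21045 genes tested. PDGFB was at the 90.7 percentile and ANGPT1 at the 9.54 percentile. VEGFB, which was not called, had 9.05 and PGF 7.04, both on a retained intron transcript, with 1.68 in FLT1 and 0.759 in ANGPT2. Genes with many and with few C runs were thus found both among the members called and among the others. These counts are a description of the sequence and not of binding.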

How the data were processed

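PolyA libraries were sequenced paired end with 150 cycles. The authors quantified transcripts with Salmon 1.10.2 and deposited, per library, an estimated count (not scaled for depth or length) and a TPM value (scaled by Salmon for effective length). Effective lengths, another deposited column, were used for the length offset only. The index and strand setting are not given in the sources used here. Of 252045 transcripts, 251612 were matched to GENCODE 44 (GRCh38), and the 433 others held 0.125% to 0.138% of counts. Estimated counts were summed per gene, rounded and tested with edgeR 4.0.16 (glmQLFTest, TMM factors 0.974 to 1.03) in R 4.3.3 where the mean exceeded 10, with no covariates. Alternatives were DESeq2 1.42.0, RLE factors, a summed count above 10, no filter, a length offset, limma 3.58.1 on log2(TPM + 0.1) or log2(TPM + 1), each library left out, and a replicate block. VEGFA transcripts with part of exon 6 or 7, or without exon 5, were counted in neither class but as other. Intervals and limits of detection cover counting error only.

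Genes named are the members, PCBP1, in each list the DEGs and up to 4 more called genes by p, the 3 genes nearest to VEGFA and to PDGFB, genes with overlapping exons, and member transcripts with a mean of at least 0.1 TPM, up to 6 a gene. The soluble and membrane transcripts of FLT1, PDGFA-201, VEGFA-225, CCN1, and genes given without a call were added later, with their values in view. The members and lists were chosen with earlier results of these data known. On simulated data edgeR recovered 198 of 200 changed genes (99%) with 15 unchanged genes called among 20660, and 54 of 200 changed transcripts (27%) with 3 unchanged called among 80187. DESeq2 recovered 131 transcripts and called 561 unchanged ones. Not every marker of the K562 list is reported here.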

Additional observations from a re-analysis of the deposited data

How the results depend on the processing

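VEGFA, PDGFB and ANGPT1 were called lower in all 14 alternatives, and PDGFA in 11. The number of members called was 3 with the transcript length offset and with limma at either pseudocount, and 4 otherwise. The number of genes called was 3333, and 1882 with the transcript length offset, 1634 by limma on log2(TPM + 0.1) and 1586 by limma on log2(TPM + 1). DEGs numbered 308, and 515 with no filter on low counts and 58 by limma on log2(TPM + 1). Transcripts called numbered 176, and 5876 by DESeq2, 0 with the replicate block and 2 to 4 with 1 library left out. Member transcripts called numbered 0, and 8 by DESeq2. DESeq2 also called 561 unchanged transcripts in simulated data. Among members with a mean of at least 1 TPM, isoform classes without overlap in their share numbered 2 of 12, 1 with estimated counts, and 2 to 6 with 1 library left out, the highest without +Dox replicate 3. The VEGF165 share differed by −6.41 percentage points, and by 0.568 with VEGFA-225 left out, an alternative chosen after seeing the data. Classes without overlap numbered 3 with all transcripts as the denominator. The log2 fold change of VEGFA-205 was −0.07, and 0.43 with the replicate block and from −0.89 to 0.58 with 1 library left out, lowest in the absence of +Dox replicate 3 and highest in that of −Dox replicate 1, above 0 also without −Dox replicate 3 (0.14) and +Dox replicate 1 (0.51). Its values of 0 TPM in 2 libraries mean that it is not read alone. PTPRB lost its call in 6 of the 14 alternatives, PCSK6 in 4, and SPARC in 1 (limma on log2(TPM + 1), adjusted p = 0.0516). By limma on log2(TPM + 1) the log2 fold changes of IL6 and CXCL8 were −1.35 and −1.29. The cause of these changes was not tested.

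Libraries with the same replicate number did not deviate together (correlations 0.00752, −0.0605 and −0.00285), so the numbers do not pair the libraries. With the replicate block 2490 genes, 298 DEGs and 4 members were called. FLT1, PGF and ANGPT2, which were not called, had counts between 15 and 129 per library; whether depth set this was not tested. DESeq2 gave no adjusted p for ANGPT2.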
